A study of Mus musculus with 23 samples.

Results

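The genes described here are 44 members of the interferon response measured in whole mouse lung by RNA sequencing. They were found by symbol, from a list of names. All 44 were found among the 24411 genes of the deposited tables, and all 44 passed the filter on low counts in every comparison. The libraries number 23, in 7 groups. Lungs of mice with intact Rarres1 (wild type, WT) and of mice without it (knockout, KO) were collected just before birth on embryonic day 19.5 (E19.5) and at ages of 10 and 18 months. The remaining group holds tumours from the lungs of KO animals aged 18 months. Each group has 3 libraries except the KO non-tumour lungs at 18 months, which have 5 (numbered 1, 2, 3, 6 and 7). The tumours are numbered 1, 3 and 6, and their sample codes differ from those of the non-tumour KO lungs 1, 3 and 6 only in a final letter for tumour or normal, so they were taken as pairs from the same mice. All mice had a C57BL/6 background, were kept under pathogen-free barrier conditions and received no treatment. The adults were males, and no sex is given for the embryos. Rarres1 encodes a retinoic acid-responsive membrane protein, and the design of its deletion is not given in the sources used here. The labels call the libraries separate samples without naming separate animals for each, so the p-values below measure the spread between these samples.

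Interferons are secreted proteins that warn cells of infection. Type I and type III interferons act through receptor-bound JAK kinases on a complex that holds STAT2 and IRF9 and binds DNA at the interferon-stimulated response element (ISRE). Interferon gamma, made mainly by T and NK cells, acts at gamma-activated sites (GAS) and through IRF1, and raises the guanylate-binding proteins and the genes that prepare peptides for MHC class I. In healthy lung many of these genes are expressed at a resting level by epithelium, endothelium and leukocytes. In whole-tissue RNA a lower value from fewer cells of a type and a lower value from less RNA per cell cannot be told apart.

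The bases before the start of several members are shown first, because the elements named above, the ISRE and the GAS, were searched for there. RefSeq promoter windows (assembly GRCm38.p6, 250 bases before to 50 after each annotated start) were matched for 33 of the 44 genes. The ISRE was searched as GAAANNGAAA and the GAS as TTCNNNGAA, on both strands, with overlapping matches kept. An ISRE match was present for 17 of 33 members (51.5%) and for 3.99% of all 27025 genes with a window. A GAS match was present for 11 of 33 members (33.3%) and for 9.55% of all genes. All 5 guanylate-binding and immunity-related GTPases with a window had an ISRE match, and none of the 3 antigen processing genes had one. A match describes letters only and does not show that a factor binds there.

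In the stretches below capitals mark the matches, and the bases lie upstream of the start that the window uses and are read 5′ to 3′ in the direction of the gene. RefSeq lists several transcripts of Ifit3, and its window belongs to a start at 34583529, inside a gene annotated from 34583119, so this stretch is upstream of that start and within the longer gene model. Isg15 (the ubiquitin-like ISG15), Rsad2 (viperin) and Ifit3 (an antiviral effector) are shown because they share the element and yet differ in their course with age, Gbp2 for its ISRE, and Irf1 and Psmb8 for their GAS matches. Psmb9 and Tap1 are transcribed away from each other, and the 225 bases between their starts, shown on the strand of Tap1, hold neither motif.
Isg15, chr4:156200830-156200941, minus strand: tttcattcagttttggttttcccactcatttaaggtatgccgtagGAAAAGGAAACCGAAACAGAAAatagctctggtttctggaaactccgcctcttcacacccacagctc
Rsad2, chr12:26456518-26456617, minus strand: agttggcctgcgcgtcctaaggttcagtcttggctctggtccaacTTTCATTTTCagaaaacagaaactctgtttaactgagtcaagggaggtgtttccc
Ifit3, chr19:34583328-34583461, plus strand: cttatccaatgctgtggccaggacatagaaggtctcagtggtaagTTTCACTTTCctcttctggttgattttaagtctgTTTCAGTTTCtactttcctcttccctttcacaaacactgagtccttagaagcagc
Gbp2, chr3:142620559-142620658, plus strand: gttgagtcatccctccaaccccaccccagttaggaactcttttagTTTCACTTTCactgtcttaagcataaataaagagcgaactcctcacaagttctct
Irf1, chr11:53769879-53769977, plus strand: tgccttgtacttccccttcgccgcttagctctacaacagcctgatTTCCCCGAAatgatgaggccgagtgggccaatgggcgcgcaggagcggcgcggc
Psmb8, chr17:34198053-34198151, plus strand: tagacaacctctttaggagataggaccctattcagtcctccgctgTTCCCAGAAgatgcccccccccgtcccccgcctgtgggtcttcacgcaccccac
Psmb9 and Tap1, chr17:34187331-34187555, plus strand: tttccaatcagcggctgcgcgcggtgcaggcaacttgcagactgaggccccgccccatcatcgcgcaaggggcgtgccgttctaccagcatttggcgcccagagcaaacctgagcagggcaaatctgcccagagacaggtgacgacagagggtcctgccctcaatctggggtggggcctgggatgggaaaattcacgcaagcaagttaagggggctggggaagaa

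Every member was detected in every library. Levels between genes were compared as FPKM, a unit corrected for transcript length and library size, averaged over the 23 libraries. Ifitm3, which blocks virus entry at endosomes, was the most abundant member at 523 FPKM, followed by Bst2 (tetherin, which holds budding virus at the cell surface) at 148. Ifi27 stood at 90.2 and the immunoproteasome subunits Psmb8 and Psmb9 at 72.4 and 58.3 FPKM. Among the transcription factors Irf1 was highest at 53.6, followed by Irf9 at 27.3. Gbp2 (32.8) and Igtp (22.5) led the GTPases, Isg15 (25.1) and Usp18, which removes ISG15 from proteins, (17.9) the ISG15 system, and Trim25 (23.1) and Ddx58, which encodes RIG-I, (13.7) the sensors of foreign RNA and their partners. RefSeq annotates Mx1 and Mx2 as transcribed pseudogenes in this strain, whose Mx proteins are known to be defective, so their values describe RNA only. Ifit3 and its neighbour Ifit3b, and Oas1a and its neighbouring copies, are near-identical, and the split of reads between them is an estimate of the counting program.

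**Figure D1:**
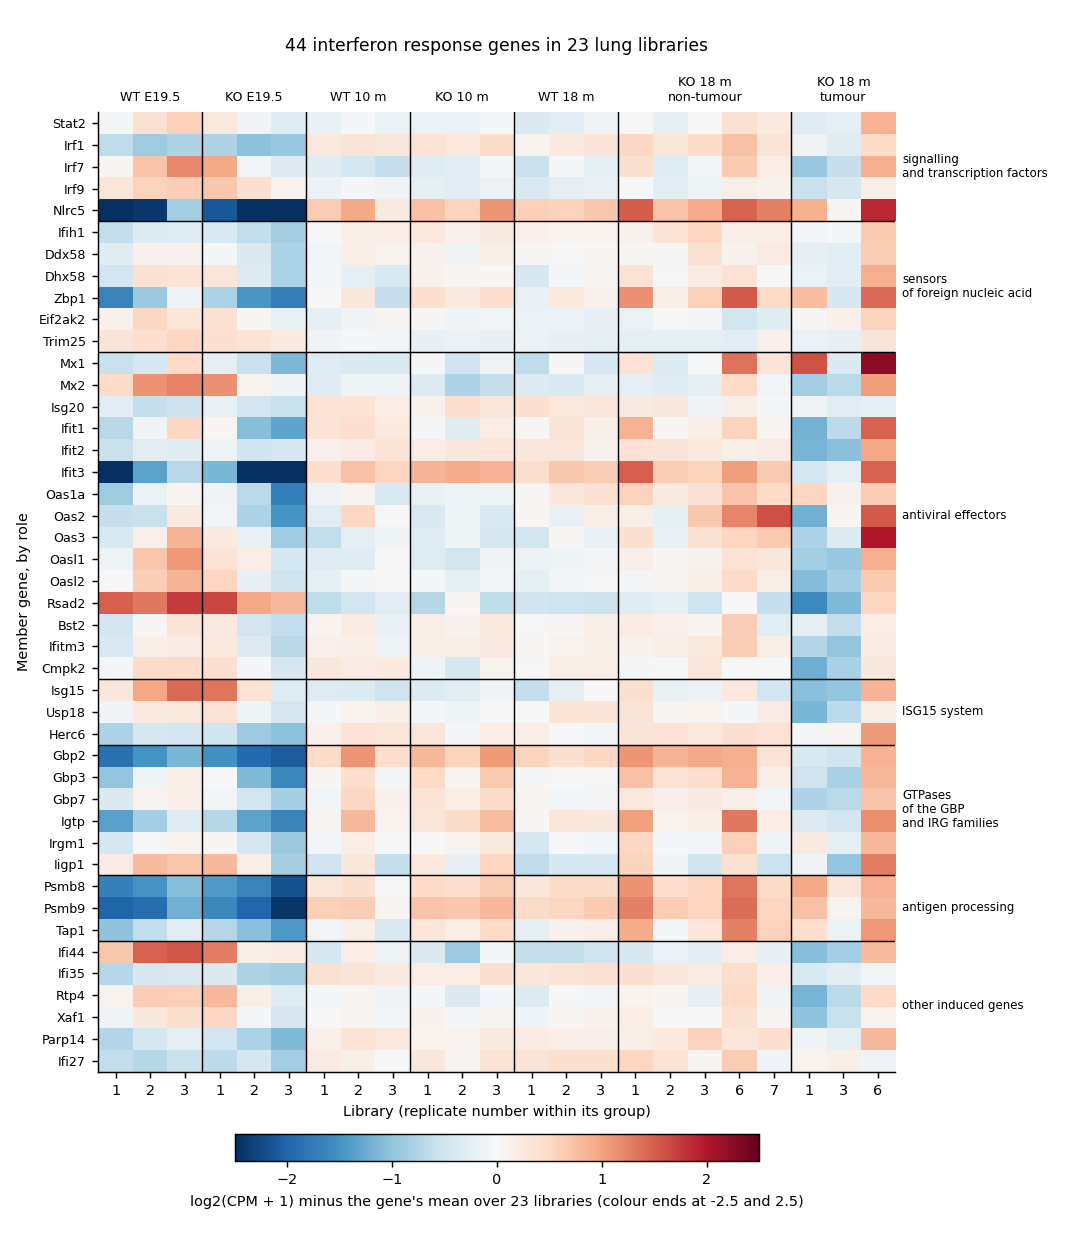
Each cell gives log2(CPM + 1) of 1 gene in 1 library minus that gene's mean over the 23 libraries, with genes in rows by role and libraries in columns by group. The column order is fixed by group and was not clustered. Tumour 6 is high for most genes, and tumours 1 and 3 are low for many.

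Total counts per library, in units of 1e+06 counts, ran from 23.7 to 46.6. Within groups, libraries differed by more than counting noise in all 28 pairs (chi-square per degree of freedom at least 6.72). Rarres1 had 24 to 64 counts in each WT library and 0 or 1 in each KO library, which is the direction the labels give. Markers of lung cells were present throughout, with type 2 cell markers summing to 18412 to 23918 CPM (counts scaled to library size, with factors from the TMM method) in WT embryos and 20261 to 25130.0 in WT lungs at 10 months. WT embryo 3 stood apart from the other embryos: 6 basal and squamous cell markers summed to 798 CPM there and to between 3.61 and 6.21 in the other 5, and 6 skeletal muscle markers to 392.1 CPM against 53.9 to 160.4.

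Between late gestation and 10 months the interferon response genes moved in both directions. In WT lungs 14 of 44 rose and 12 fell, and in KO lungs 17 rose and 4 fell. The antigen processing genes Psmb8 and Psmb9, the guanylate-binding protein Gbp2 and the regulators Irf1 and Nlrc5 rose in both genotypes. Rsad2, Mx2, Irf9 and Trim25 fell in both. Other antiviral effectors, Ifit2, Ifit3 and Isg20, rose in both, as did Herc6 and the sensor gene Ifih1. Calls here and below mean an adjusted p under 0.05 in edgeR's quasi-likelihood test with Benjamini-Hochberg adjustment over all genes tested, and fold changes are log2 values with standard errors. Most genes of the lung changed over this interval: 62.8% of 15619 genes in WT (31.6% higher and 31.2% lower) and 60.5% of 15626 genes in KO (31.1% higher and 29.4% lower). Of the 44 members 14 rising and 12 falling in WT is close to that background, while the 4 falling in KO lie below it. Over alternative fits the members called lower numbered 7 to 16 in WT and 3 to 7 in KO. No member passed the test for a difference between the genotypes, given below. The median change over the members was 0.11 in WT and 0.47 in KO, beside 0.00 over all genes tested in each.

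The antigen processing genes lie together on chromosome 17 in the MHC region: Psmb9 and Psmb8 encode catalytic subunits of the immunoproteasome, and Tap1 encodes one chain of the transporter that carries peptides into the endoplasmic reticulum. Psmb9 stood at 6.14, 6.63 and 11.4 CPM in the WT embryos and 42.2, 42.8 and 29.2 at 10 months, and at 8.35, 6.23 and 4.33 and 46.2, 44.6 and 50.2 in KO. Every adult library was above every embryo in both genotypes, a rise of 2.23 ± 0.29 in WT (adjusted p = 0.000984) and 2.88 ± 0.21 in KO (adjusted p = 2.01e-05). Psmb8 rose by 1.67 ± 0.19 and 2.29 ± 0.19 (adjusted p = 0.000335 and 4.61e-05). Tap1, which shares its upstream stretch with Psmb9, stood at 29.1, 38.2 and 49.4 CPM in WT embryos and 56.6, 67.2 and 45.5 at 10 months, ranges that overlapped. Its change of 0.53 ± 0.24 in WT did not pass the test, and in KO it rose by 1.39 ± 0.18 (adjusted p = 0.000394). The difference between the genotypes in that change, 0.86 ± 0.32, did not pass the test either (adjusted p = 0.575).

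Among the signalling genes, Irf1, the transcription factor that relays interferon gamma, stood at 62.6, 51.9 and 56.4 CPM in WT embryos and 118, 122 and 119 in WT adults. The adult libraries lay close together and all above the embryos, with a rise of 1.06 ± 0.08 (adjusted p = 2.93e-06), and KO lungs rose by 1.28 ± 0.09 (adjusted p = 7.67e-06). Nlrc5, the transactivator of MHC class I genes, was low in the embryos, at 1.46, 2.48 and 9.38 CPM in WT and 3.31, 1.33 and 0.681 in KO, and stood at 28.0, 34.9 and 21.2 and 30.1, 26.4 and 38.8 at 10 months. Its rise was 2.66 ± 0.78 in WT (adjusted p = 0.0390) and 4.12 ± 0.49 in KO (adjusted p = 0.000676). WT embryo 3 was the highest embryo for this gene, and without it the WT rise was 3.83 ± 0.34 (adjusted p = 0.000262). Irf9, the DNA-binding subunit of the type I complex, fell by 0.62 ± 0.09 in WT and 0.64 ± 0.14 in KO (adjusted p = 0.000295 and 0.00416). Stat2 and Irf7, its partner and the amplifier of type I interferon production, fell in WT (by 0.49 ± 0.15 and 1.22 ± 0.32, adjusted p = 0.0258 and 0.0210), and their values in KO of -0.10 ± 0.14 and -0.54 ± 0.36 did not pass the test.

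The GTPases of the GBP and IRG families, which attack the vacuoles of intracellular pathogens, included no member called lower. Of these 6 members 2 rose in WT and 3 in KO, beside 31.6% and 31.1% of all genes. Gbp2 stood at 15.6, 20.5 and 26.4 CPM in WT embryos and 81.8, 128 and 80.7 in WT adults, with no overlap, and rose by 2.20 ± 0.29 in WT and 2.72 ± 0.19 in KO (adjusted p = 0.00138 and 2.45e-05). Igtp (Irgm3) rose by 1.18 ± 0.37 and 1.76 ± 0.27 (adjusted p = 0.0434 and 0.00147), and its WT call was lost in 6 of 14 alternative fits. Gbp7 passed the test in KO (0.76 ± 0.19, adjusted p = 0.00981) and had a value of 0.21 ± 0.21 in WT. Gbp3, Irgm1 and Iigp1 passed it in neither genotype. Iigp1 had a value of -0.83 in WT, from 56.8, 86.4 and 80.1 CPM in embryos to 34.1, 60.0 and 32.2 in adults.

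The 15 antiviral effectors split, with 3 rising and 4 falling in WT and 3 rising and 2 falling in KO. Rsad2, whose product viperin makes a chain-terminating nucleotide, stood at 33.3, 29.4 and 39.9 CPM in WT embryos and 6.84, 7.69 and 9.22 in WT adults, and at 38.0, 22.7 and 20.3 and 6.48, 11.6 and 6.89 in KO. All embryos were above all adults, and the gene fell by 2.12 ± 0.15 in WT (adjusted p = 3.10e-06) and 1.71 ± 0.33 in KO (adjusted p = 0.00399). Ifit3 moved the other way, from 6.98, 19.4 and 31.2 CPM in WT embryos to 68.6, 84.9 and 74.0 in WT adults, and from 22.5, 8.32 and 5.73 to 92.9, 97.9 and 93.3 in KO. It rose by 1.97 ± 0.58 and 2.94 ± 0.53 (adjusted p = 0.0397 and 0.00568), and its WT call was lost in 5 of 14 alternative fits. Both genes hold the ISRE in the stretches above. Of the 17 members with an ISRE match 4 rose and 4 fell in WT and 5 rose and 1 fell in KO. Of the 16 without one 7 rose and 6 fell in WT and 8 rose and 2 fell in KO. Of the 11 members with a GAS match 6 rose and 1 fell in WT and 7 rose and 0 fell in KO. Of the 22 without one 5 rose and 9 fell in WT and 6 rose and 3 fell in KO. The same split over all genes with a window was not computed, so no link between motif and direction is drawn. Ifit2 and Isg20, an exonuclease that degrades viral RNA, rose in both genotypes by 0.61 to 0.77. Mx2 fell by 1.48 ± 0.24 and 1.46 ± 0.42 (adjusted p = 0.000544 and 0.0180). Oasl1 and Oasl2, relatives of the 2'-5' oligoadenylate synthetases, fell in WT (adjusted p = 0.0281 and 0.0450), with values of -0.48 ± 0.29 and -0.12 ± 0.27 in KO.

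In the ISG15 system, Isg15 itself stood at 15.1, 24.8 and 34.2 CPM in WT embryos and 9.55, 9.42 and 8.25 in WT adults. The embryos spread over a wide range, all above the adults, and the fall of 1.46 ± 0.30 passed the test in WT (adjusted p = 0.00665), while the KO value of -0.93 ± 0.43 did not (adjusted p = 0.111). Herc6, the ligase that attaches ISG15 in mice, rose by 0.86 ± 0.13 and 1.01 ± 0.17 (adjusted p = 0.000280 and 0.000922). Among the sensors, Trim25, a ubiquitin ligase that acts on RIG-I, fell by 0.49 ± 0.07 and 0.53 ± 0.07 (adjusted p = 0.000200 and 0.000255). Ifih1, which encodes the RNA sensor MDA5, rose by 0.54 ± 0.10 and 0.81 ± 0.12 (adjusted p = 0.00102 and 0.000389). Eif2ak2, the RNA-activated kinase PKR, fell in WT by 0.42 ± 0.12 (adjusted p = 0.0109), and Zbp1, a sensor of Z-form nucleic acid, rose in KO by 1.95 ± 0.30 (adjusted p = 0.000716). Of the other induced genes Ifi27, Ifi35 and Parp14 rose in both genotypes (0.69 to 0.93), and Ifi44 and Rtp4 fell in WT by 1.48 ± 0.30 and 0.50 ± 0.14 (adjusted p = 0.00685 and 0.0151).

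**Figure D2:**
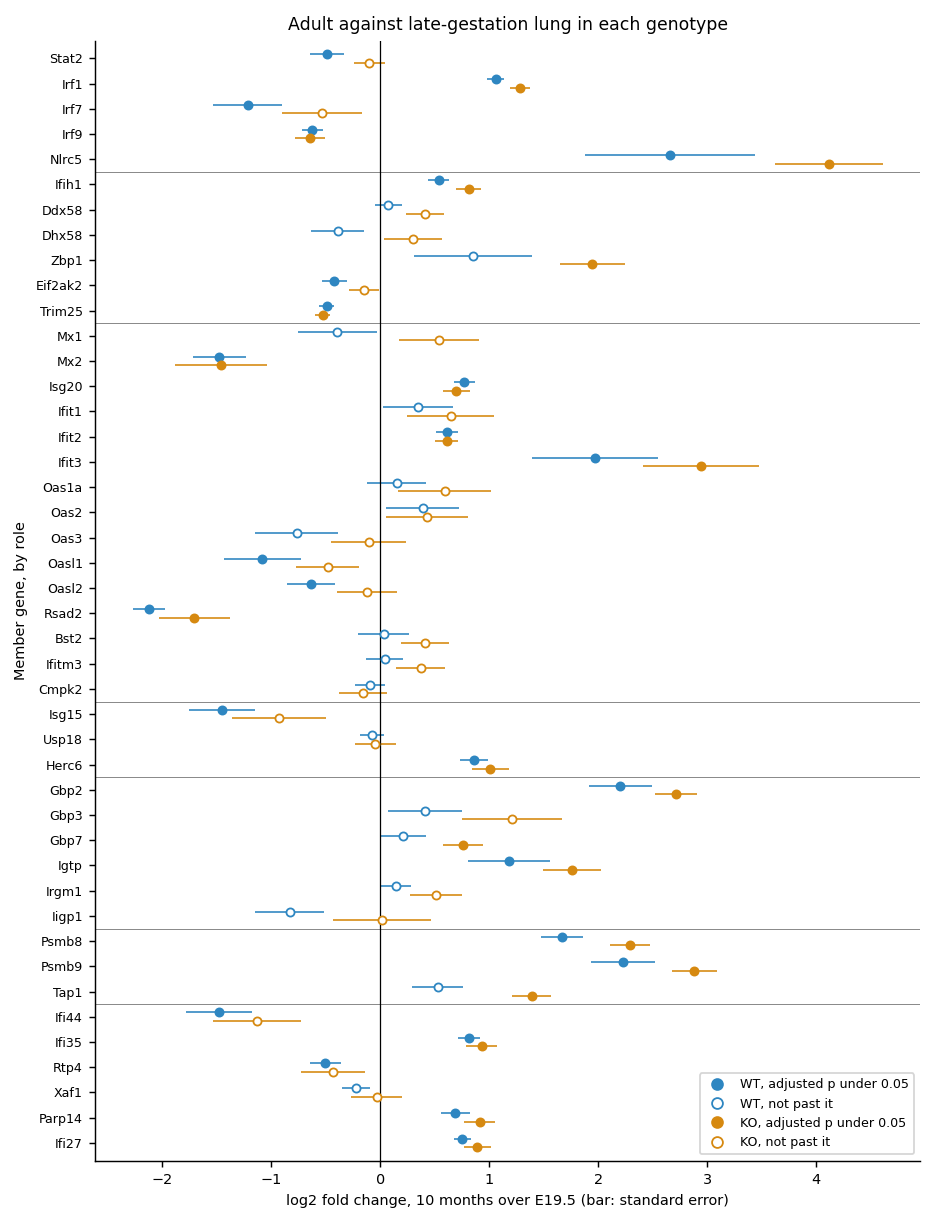
Points give the log2 fold change of 10 months over E19.5 for each gene in WT (blue) and KO (orange), bars the standard error, and filled points an adjusted p under 0.05. Antigen processing genes lie to the right in both genotypes, Rsad2 and Mx2 to the left, and no gene was called in opposite directions.

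In both genotypes 14 members rose and 4 fell. A further 8 fell in WT and had no call in KO, 3 rose in KO and had no call in WT, and none was called in opposite directions. The difference between the genotypes was tested as an interaction, the KO effect at 10 months minus that at E19.5, and no member passed (0.156% of 15994 genes did). At an unadjusted p under 0.05 it had 1 member, Tap1, beside 7.6% of all genes, and DESeq2 and limma also called none. The interaction was above 0 for 39 of 44 members, and for 34 without WT embryo 3. In WT 17 of 26 calls and in KO 19 of 21 kept their side of the threshold under all 14 alternatives. The WT calls lost in at least 1 were Stat2, Irf7, Nlrc5, Ifit2, Ifit3, Oasl1, Oasl2, Igtp and Rtp4. The KO calls lost were Mx2 and Ifit2. Nlrc5 in WT is an example of a call that did not: without WT embryo 1 or 2, or without any 1 of the WT adults, its adjusted p was 0.0703 to 0.116, and its rise 2.24 to 2.83. Markers of leukocytes moved with age beside these genes. All 12 T and NK cell markers rose in both genotypes, and their summed level was 3.70 to 6.83 CPM in WT embryos and 66.4 to 78.7 in WT adults. Alveolar macrophage markers summed to 75.9 to 101 and 807 to 1034 CPM, and 7 of 8 rose. Their part in the changes of the members was not tested. Without WT embryo 3 the WT count was 18 higher and 10 lower, and without WT embryo 1 it was 12 higher and 16 lower, with a median of -0.07.

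The interferons themselves were almost undetected. Of 14 interferon genes looked for, 8 were at 0 counts in all 23 libraries, which allows up to 3 counts or 0.0644 to 0.127 CPM in a library, and 4 more had 1 to 4 counts over all libraries together. The remaining 2 were Ifnz and Ifng. Ifnz had 49 counts in all, at most 6 in a library and 0 in 8 of the 23 libraries. Ifng, the gene of interferon gamma, had 131 counts in all: 0 to 6 in each embryo and each WT or KO lung at 10 months, and in the KO non-tumour lungs at 18 months 33 in lung 1, 2 in lung 2, 10 in lung 3, 19 in lung 6 and 6 in lung 7. The WT lungs at 18 months had 5, 4 and 2 counts of Ifng, and tumours 1, 3 and 6 had 12, 2 and 9. All 6 receptor genes passed the filter on low counts. Of these 4 rose and 1 fell from E19.5 to 10 months in each genotype: Ifngr1, a chain of the interferon gamma receptor, rose by 0.73 ± 0.06 in WT and 0.62 ± 0.08 in KO, and Ifnar1, a chain of the type I receptor, fell by 0.44 ± 0.06 and 0.41 ± 0.06. Of 8 relay kinases and brakes 3 rose in each genotype (Jak1, Jak2 and the phosphatase gene Ptpn6) and 1 fell in WT, Socs1. Of 16 genes of the sensor pathways upstream of interferon 8 rose and 2 fell in WT and 10 rose and 2 fell in KO, among them Tlr3 (by 1.20 ± 0.10 and 1.27 ± 0.15) and Tlr7 (by 1.16 ± 0.15 and 1.76 ± 0.14), receptors for RNA in endosomes. Of 16 other genes of MHC class I processing 15 rose in WT and 13 in KO, with B2m, the light chain of class I, at 2.24 ± 0.18 in WT and the heavy chain H2-K1 at 3.21 ± 0.10 in KO. Of 54 tested genes of a further list of interferon-induced genes 30 rose and 5 fell in WT and 35 rose and 2 fell in KO.

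At E19.5 the 6 embryos differed widely among themselves within each genotype. WT embryo 3 was the highest embryo for 29 of 44 members and KO embryo 3 the lowest for 40. The mean of log2(CPM + 1) over the members was 4.35, 4.77 and 5.05 in the WT embryos and 4.85, 4.30 and 3.95 in the KO embryos. The groups overlapped, with KO embryo 1 above WT embryos 1 and 2. No member was called between KO and WT (0% of 15307 genes were), none had an unadjusted p under 0.05 (0.941% of all genes had), and DESeq2 and limma called none. The median over the members was -0.35, with 42 of 44 below 0, beside 0.00 over all genes tested.

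Ifit3 stood at 6.98, 19.4 and 31.2 CPM in WT and 22.5, 8.32 and 5.73 in KO embryos. WT embryo 1 and KO embryos 2 and 3 were low together, and the other 3 were high. The same 3 embryos were high for Irf7, at 27.6, 44.5 and 62.4 CPM in WT and 53.0, 25.2 and 20.8 in KO. Iigp1, an immunity-related GTPase, stood at 56.8, 86.4 and 80.1 and 87.8, 55.4 and 27.5 CPM, and Stat2, which had the smallest unadjusted p of the members in this comparison, at 56.6, 75.7 and 87.8 and 69.1, 53.8 and 45.5. The Stat2 difference was -0.39 ± 0.20 (unadjusted p = 0.0994, adjusted p = 1.00 in edgeR). Bst2 and Ifitm3 showed the same embryos high, for example KO embryo 1 at 270.2 CPM of Ifitm3 and KO embryo 3 at 139. Without WT embryo 3, the embryo with squamous and muscle markers, the median was -0.14, and without KO embryo 3 it was also -0.14. Leaving out both embryos gave 0.03, with 26 of 44 above 0. Both were picked by the members' own values, as the highest WT and the lowest KO embryo for most members. A shift towards 0 follows from that choice, so this value describes the remaining embryos only.

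**Figure D3:**
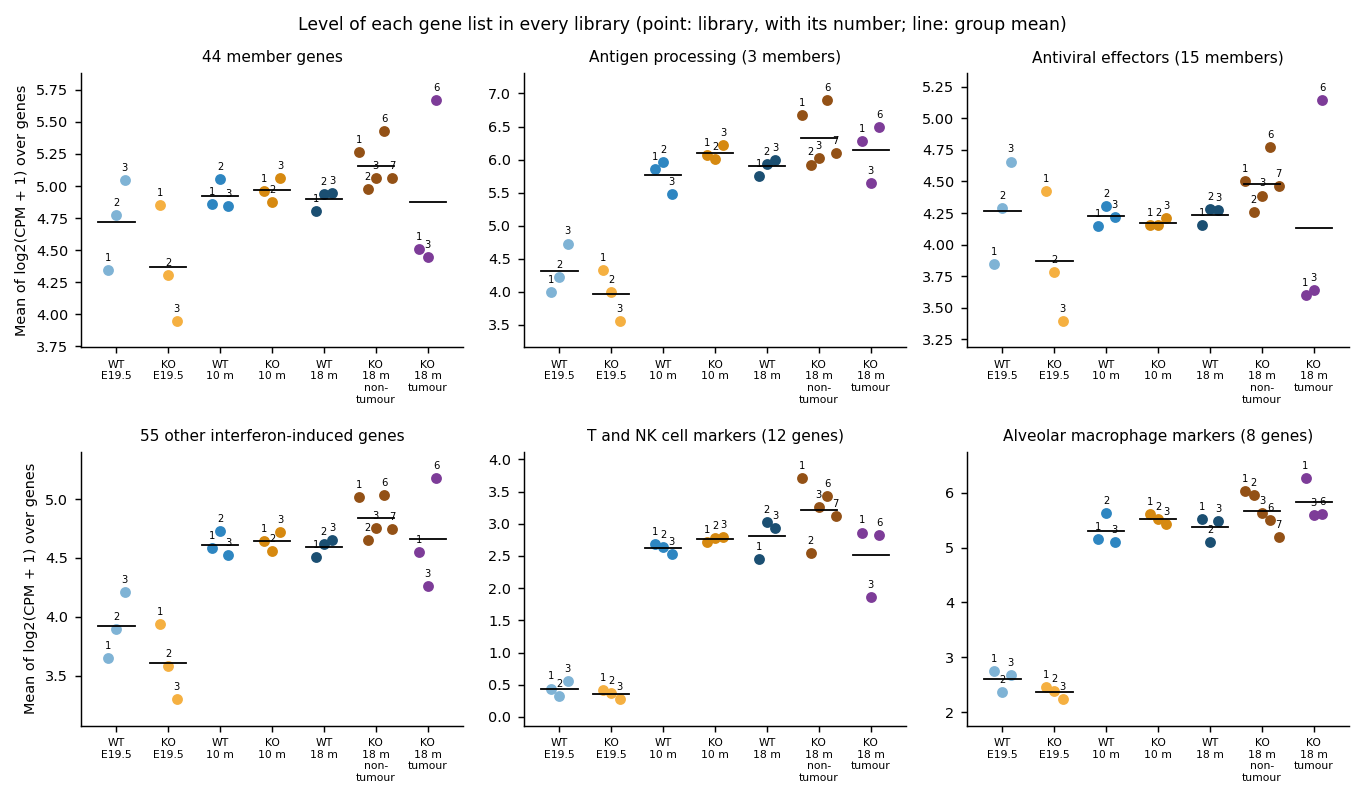
Points give the mean of log2(CPM + 1) over the genes of a list in each library, numbered within its group, and lines the group means. For the members KO embryo 3 is the lowest library (3.95) and tumour 6 the highest (5.67), and T and NK cell markers are low in all 6 embryos.

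At 10 months the interferon response of KO lungs was close to that of WT lungs in level, and small differences ran in both directions. No member passed the test in edgeR, where 1.52% of 15324 genes passed. At an unadjusted p under 0.05 there were 8 members, close to the 17.4% of all genes. DESeq2 called 1 member, Ifit3, and limma none. The median over the members was 0.05, with 26 of 44 above 0. Ifit3 stood at 68.6, 84.9 and 74.0 CPM in WT and 92.9, 97.9 and 93.3 in KO lungs. All 3 KO lungs were above all 3 WT lungs, by 0.31 ± 0.08 (adjusted p = 0.0917 in edgeR and 0.0230 in DESeq2). Its neighbour Ifit1 had lower values in KO, at 24.6, 25.9 and 22.7 CPM in WT and 18.7, 15.4 and 21.8 in KO, a difference of -0.39 ± 0.12 (adjusted p = 0.141). Cmpk2, a mitochondrial nucleotide kinase next to Rsad2, stood at 31.7, 30.1 and 30.9 and 24.4, 19.5 and 27.6 CPM, also lower in every KO lung (-0.38 ± 0.11, adjusted p = 0.136).

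All 3 antigen processing genes were higher in every KO lung than in any WT lung at 10 months. Tap1 stood at 56.6, 67.2 and 45.5 CPM in WT and 73.1, 67.9 and 83.7 in KO (0.40 ± 0.14, adjusted p = 0.219), and Psmb8 at 76.4, 81.2 and 61.5 and 86.3, 83.3 and 95.8 (0.27 ± 0.10, adjusted p = 0.226). Dhx58, which encodes the RNA sensor LGP2, had a value of 0.32 ± 0.11 (adjusted p = 0.184), and Mx2 and Trim25 had values of -0.58 ± 0.23 and -0.13 ± 0.05 (adjusted p = 0.235 and 0.247). Groups that did not overlap were found for 10 of 44 members, 5 in each direction, and for 24.7% of all genes tested. WT lung 2 and KO lung 3 were each the highest of the 6 for 15 members, KO lung 2 was the lowest for 16 and WT lung 3 for 15. T and NK cell markers summed to 66.4 to 78.7 CPM in WT and 83.2 to 86.7 in KO lungs, with 11 of 12 above 0 and none called. Their part in these differences was not tested.

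At 18 months most members had higher values in the non-tumour KO lungs than in the WT lungs, without passing the test. The 3 WT lungs lay close together, and KO lungs 1 and 6 were high for most members, while KO lung 2 stood near the WT lungs. The mean of log2(CPM + 1) over the members was 4.80, 4.93 and 4.95 in WT and 5.27, 4.97, 5.06, 5.42 and 5.06 in KO lungs 1, 2, 3, 6 and 7. KO lung 6 was the highest of the 8 lungs for 26 members and KO lung 1 for 8, and WT lung 1 was the lowest for 23. No member was called in edgeR (0.0776% of 15463 genes were), and DESeq2 and limma called none. At an unadjusted p under 0.05 there were 11 members, beside 8.04% of all genes. The median over the members was 0.27, with 38 of 44 above 0, beside 0.00 over all genes tested. Groups that did not overlap were found for 5 members, all higher in KO, and for 6.72% of all genes in either direction.

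Gbp3 had the smallest p of the members, with 29.6, 31.0 and 30.8 CPM in WT and 51.6, 40.0, 42.1, 57.5 and 34.9 in KO lungs. Each KO lung was above each WT lung, and the KO values spread over a wider range (0.56 ± 0.15, unadjusted p = 0.00391, adjusted p = 0.318 in edgeR). Nlrc5 stood at 27.1, 26.7 and 28.7 and 51.9, 29.7, 34.2, 51.0 and 43.4 CPM (0.61 ± 0.18, adjusted p = 0.372). Its lowest KO lungs were 2 and 3, just above the WT lungs. Herc6 stood at 20.2, 17.5 and 16.8 and 22.5, 23.1, 21.5, 23.7 and 22.9 CPM (0.32 ± 0.10, adjusted p = 0.403), and here the 5 KO lungs lay close together. Tap1 ranged from 58.0 CPM in KO lung 2 to 144 in KO lung 6, across WT values of 50.6, 64.1 and 66.7 (0.65 ± 0.26, adjusted p = 0.554). Zbp1 had the widest difference of these, 0.86 ± 0.31 (adjusted p = 0.480), with KO lung 6 at 23.3 CPM and KO lung 2 at 8.30, within the WT range of 6.40 to 9.11. Oas3, Ifi44 and Gbp2 had values of 0.71 ± 0.25, 0.44 ± 0.16 and 0.35 ± 0.14 (adjusted p = 0.462, 0.474 and 0.579).

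Leukocyte markers varied beside the members at 18 months. The 12 T and NK cell markers summed to 67.9 to 104 CPM in WT lungs and to 185, 73.0, 126, 142 and 111 in the KO lungs, with the highest sums in lungs 1 and 6. All 12 had log2 fold changes above 0 and none was called. B and plasma cell markers summed to 215 to 368 CPM in WT and 201 to 993 in KO lungs. Other markers differed too, with none called: plasmacytoid dendritic cell markers were above 0 for 6 of 6 (152 to 157 CPM in WT and 128 to 185 in KO), monocyte and interstitial macrophage markers for 8 of 8 (234 to 261 and 221 to 438) and cycling cell markers for 8 of 9 (30.2 to 49.3 and 42.996 to 85.3). Neutrophil markers went the other way, above 0 for 1 of 6, and summed to 162 to 273 CPM in WT and 136 to 184 in KO lungs. Heart muscle markers were above 0 for 0 of 5 and summed to 383 to 494 CPM in WT and 56.5 to 262 in KO lungs. The part of these markers in the difference was not tested. Of the receptors and of the relay kinases and brakes, none of 6 and none of 8 passed the test. Of the 54 further interferon-induced genes tested none passed and 47 had values above 0 (median 0.26). Without KO lung 1 or 6 no member was called either, and without both the median was 0.14 with 35 of 44 above 0. Both lungs were picked because they were high for most members, so a lower median follows from the choice.

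**Figure D4:**
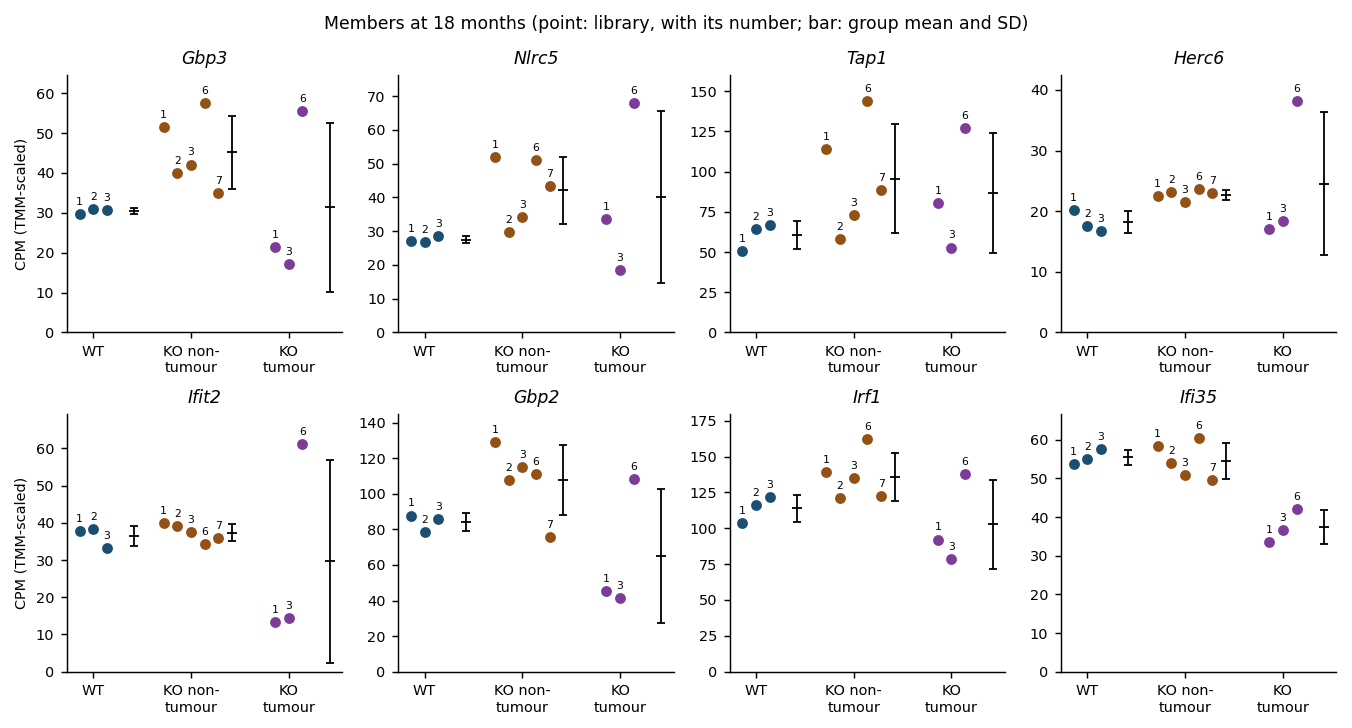
Points give CPM of 8 members in each library at 18 months, numbered within its group, and bars the group mean and SD. KO lungs 1 and 6 are high for Gbp3, Nlrc5 and Tap1, and tumours 1 and 3 lie below the non-tumour lungs for Ifit2, Gbp2 and Irf1 while tumour 6 does not.

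From 10 to 18 months no member was called in WT lungs or in KO non-tumour lungs, and 0% of 15321 and 0% of 15455 genes were. In WT 6 members had an unadjusted p under 0.05, beside 5.44% of all genes, and the median was -0.02. In KO 6 had one, all of them antiviral effectors, beside 5.06% of all genes. The KO median was 0.18 with 39 of 44 above 0, and without KO lungs 1 and 6 it was 0.03 with 25 above 0. Those lungs were picked for their high values of these members, so the lower median follows from the choice. The 6 antiviral effectors were the oligoadenylate synthetase genes Oas1a, Oas2 and Oas3, their relatives Oasl1 and Oasl2, and Mx2. Oas1a stood at 8.62, 9.0 and 9.22 CPM in KO lungs at 10 months and 15.3, 11.8, 13.3, 16.95 and 14.6 at 18 months. Every older lung was above every younger one (0.68 ± 0.14, unadjusted p = 0.000501, adjusted p = 0.893 in edgeR and 0.00884 in DESeq2, which called this 1 member). Oas2 stood at 6.80, 8.51 and 6.85 and 10.2, 7.76, 15.3, 22.8 and 30.2 CPM, with lungs 6 and 7 high and lung 2 in the younger range (1.23 ± 0.41, adjusted p = 0.893). In WT lungs Oas1a had a value of 0.42 ± 0.15 and Ifi27, which had the smallest p, one of 0.26 ± 0.07 (adjusted p = 0.891 and 0.840). DESeq2 called no member in WT, and limma called none in either genotype.

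Whether the KO effect differed between ages was tested directly. The KO effect at 18 months minus that at 10 months had a median of 0.24 over the members, with 40 of 44 above 0, and the effect at 18 months minus that at E19.5 had a median of 0.67, with 41 above 0. No member passed in either (0% of 15653 and 0.0436% of 16055 genes did), by edgeR, DESeq2 or limma. At an unadjusted p under 0.05 there were 7 and 17 members, beside 2.89% and 5.83% of all genes. Without WT embryo 3 the second was above 0 for 40 members. The smallest p in the first was that of Herc6 (0.44 ± 0.14, adjusted p = 1.00) and in the second that of Stat2 (0.72 ± 0.25, adjusted p = 0.821). Both differences share the KO and WT lungs at 18 months.

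The 3 tumours did not share 1 interferon state. Tumours 1 and 3 were low for most members and tumour 6 was high, and the comparison of all tumours with the 5 non-tumour KO lungs called a single member. Ifi35, an interferon-induced protein of the NMI family, fell by 0.55 ± 0.12 (adjusted p = 0.0176), while 13.8% of 15459 genes passed (7.2% higher and 6.6% lower). At an unadjusted p under 0.05 there were 6 members, beside 29.3% of all genes. Ifi35 stood at 33.6, 36.6 and 42.2 CPM in tumours 1, 3 and 6 and 58.3, 54.0, 50.9, 60.4 and 49.5 in the non-tumour lungs. All 3 tumours were below all 5 lungs. The call was lost without tumour 1 (-0.43, adjusted p = 0.0826) or tumour 3 (-0.52, adjusted p = 0.0755), and with the mouse as a block in the 6 paired libraries (-0.60, adjusted p = 0.0956). The unpaired fit of those 6 libraries also lost it (adjusted p = 0.0780). The median over the members was -0.17, and it was 0.06 and 0.09 without tumour 1 or tumour 3.

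Over the members the mean of log2(CPM + 1) was 4.51, 4.45 and 5.67 in tumours 1, 3 and 6, against 4.97 to 5.42 in the non-tumour KO lungs. Of the 3 tumours, tumour 6 was highest for 41 members. Ifit2 shows the pattern most plainly, at 13.4, 14.5 and 61.2 CPM in the tumours and 39.9, 39.1, 37.6, 34.3 and 36.0 in the non-tumour lungs. Tumours 1 and 3 were below every lung and tumour 6 above every lung. Oas3 stood at 1.81, 2.80 and 18.2 CPM in the tumours and 5.33, 3.20, 5.22, 5.98 and 6.51 in the lungs, and Stat2 at 45.6, 48.8 and 105 and 57.9, 49.1, 56.8, 75.2 and 68.3. In each, tumour 6 was the highest of the 8 libraries. Eif2ak2 was higher in all 3 tumours, at 39.0, 41.8 and 56.5 CPM, than in any lung (33.7, 38.2, 36.6, 27.3 and 30.7), a difference of 0.46 ± 0.15 with an adjusted p of 0.0837 in edgeR, and DESeq2 called it.

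Each tumour was then set against the non-tumour lung of the same number, as a description of single pairs. In mice 1 and 3 the tumour had less of 41 of the 44 members, with median log2 ratios of -0.72 and -0.67, and in mouse 6 less of 16 and more of 28 (median 0.31). The share of all genes that were lower in each tumour was not computed, so the counts in this paragraph describe the members alone. For 15 members the tumour was lower in all 3 pairs. These include all 3 antigen processing genes: the log2 ratios in mice 1, 3 and 6 were -0.54, -0.46 and -0.60 for Psmb9, -0.17, -0.24 and -0.46 for Psmb8 and -0.51, -0.47 and -0.18 for Tap1. Ifitm3 had ratios of -0.84, -1.26 and -0.43, Bst2 of -0.46, -0.68 and -0.44, and Irf1 of -0.60, -0.78 and -0.23. Eif2ak2 and Trim25 were the only members higher in the tumour in all 3 pairs. Mx1 was higher in tumours 1 and 6 (1.41 and 0.94) and lower in tumour 3 (-0.50). With the mouse as a block no member was called, and the median was -0.50.

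**Figure D5:**
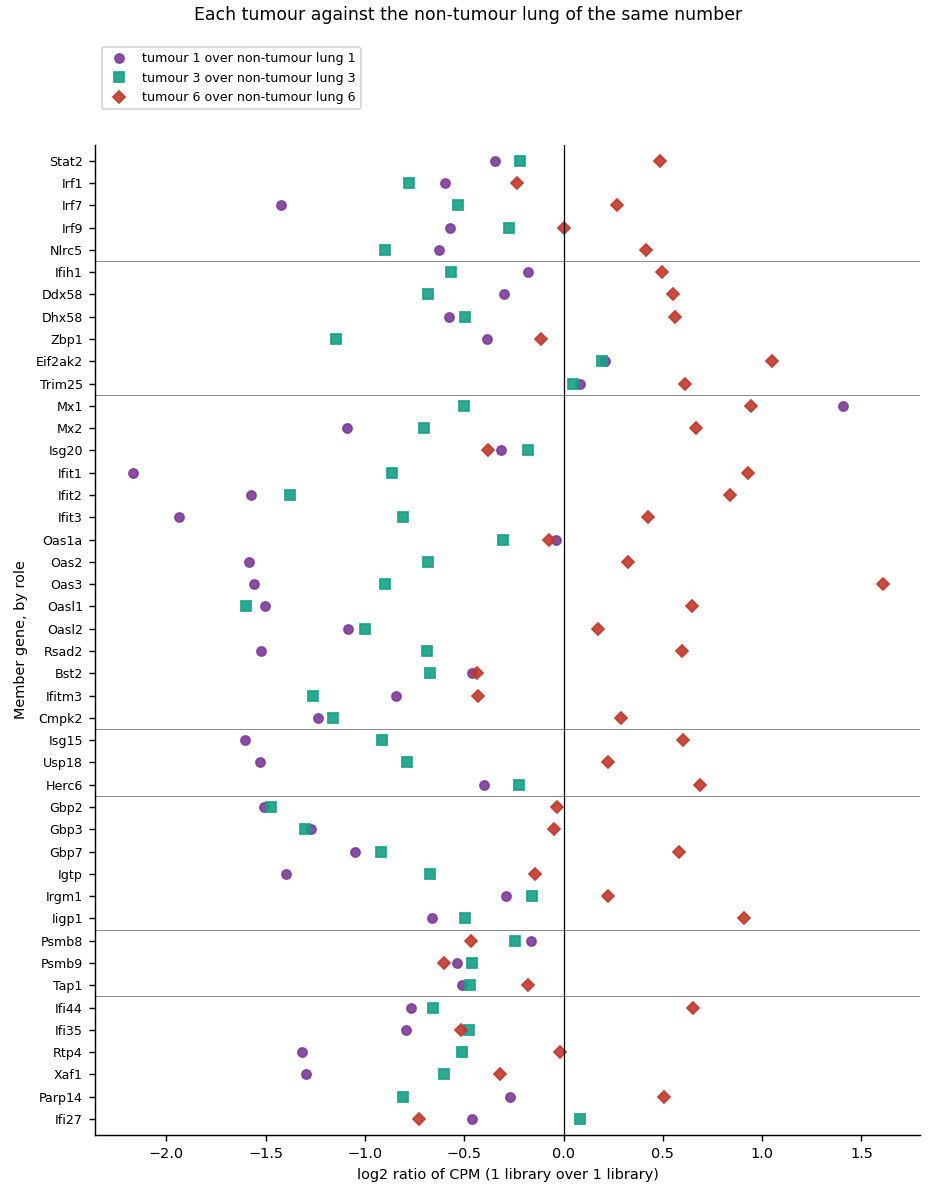
Points give the log2 ratio of CPM in a tumour over the non-tumour lung of the same number for each member, with 1 library on each side and no error. Tumours 1 and 3 lie left of 0 for 41 members each and tumour 6 right of 0 for 28, while the antigen processing genes lie left of 0 in all 3.

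Of the fits that leave out each library in turn, the one without tumour 6 differed most. Tumour 6 is singled out here because it was the highest tumour for 41 members, so the counts that follow depend on the members' own values and describe tumours 1 and 3 only. In that unpaired fit 23 of 44 members were lower and none was higher than in the non-tumour KO lungs, beside 14.3% lower and 11.7% higher of 15670 genes tested. Without tumour 1, without tumour 3 and with the mouse as a block no member was called. The 23 included 9 of 15 antiviral effectors, with log2 differences of -1.43 ± 0.12 for Ifit2, -1.17 ± 0.18 for Oasl2 and -1.15 ± 0.18 for Ifitm3. They also included Usp18 and Isg15, the GTPases Gbp2 (-1.32 ± 0.19), Gbp3 and Gbp7, the regulators Irf1, Irf7 and Irf9, and the sensor gene Ddx58 (-0.44 ± 0.12). None of the 3 antigen processing genes was among them, with tumour 1 at 121 CPM of Psmb8 and tumour 3 at 75.5. The median over the 44 was -0.70.

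The tumours also differed in their levels of cell type markers. Type 2 cell markers summed to 74041, 99459 and 45134 CPM in tumours 1, 3 and 6 and to 17575 to 28779 in the lungs, and all 6 rose. Endothelial markers summed to 1030.2, 1036 and 2799.9 CPM against 2472 to 3746 in the lungs, so that tumour 6 was nearer to lung in both. T and NK cell markers summed to 107, 42.2 and 84.9 CPM against 73.0 to 185, and neutrophil markers to 46.0 to 91.3 against 136 to 184. Alveolar macrophage markers summed to 12998, 2202 and 2189 CPM against 769 to 1955. These 8 did not move alike: 5 were above 0, with 3 called higher and 1 lower. Their mean of log2(CPM + 1) averaged 5.83 in tumours and 5.67 in the lungs. B and plasma cell markers summed to 113 to 1707 CPM against 201 to 993. Plasmacytoid dendritic cell markers summed to 80.7 to 180 CPM against 128 to 185. The part of all these markers in the levels of the members was not tested. Of the receptors none of 6 passed the test between tumour and lung, of the relay kinases and brakes Socs3, a feedback inhibitor of STAT signalling, rose (1.06 ± 0.17, adjusted p = 0.00556), and of the sensor pathway genes Tmem173, which encodes STING, rose (0.89 ± 0.21, adjusted p = 0.0262). Of the 54 further interferon-induced genes tested 2 rose, Slfn9 (1.70 ± 0.24) and Ifi30 (0.68 ± 0.19), and 2 fell, Ifi27l2a (-0.95 ± 0.24) and Ifitm2 (-0.48 ± 0.14), with adjusted p from 0.00343 to 0.0480.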

How the data were processed

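RNA was sequenced from 23 mouse lung libraries in 7 groups. The deposited tables give, per gene and library, expected counts estimated by RSEM and FPKM values computed by the authors. Trimmomatic 0.36, STAR 2.5.2b, RSEM 1.3.0 and the build mm10 are named in the submitters' processing notes, without their settings. The members and the gene lists were chosen with earlier results of these data known. Expected counts were rounded to whole numbers, low genes were removed with edgeR's filterByExpr, libraries were scaled by TMM, and a separate edgeR 4.0.16 model was fitted to the groups of each comparison (quasi-likelihood, R 4.3.3, Benjamini-Hochberg adjustment over all genes tested). Differences of KO effects between ages were interaction terms. CPM values were TMM-scaled over all 23 libraries. DESeq2 1.42.0, limma 3.58.1 on log2(FPKM + 1) and log2(FPKM + 0.1) with and without a filter at 0.5 FPKM, RLE scaling, no low-count filter, 1 fit over all libraries, a replicate block and leaving out each library were alternatives. Leaving out pairs of libraries that stood high or low for the members, and using only shared numbers without the block, were added after the data had been seen. Scripts were tested on simulated data, and figures were drawn with matplotlib 3.10.9 in Python 3.11.15. Splitting reads between near-identical genes by RSEM can move counts from 1 copy to another.

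Genes given with their values were, in each comparison, the members ranked 1 to 8 by adjusted p, and the 2 members of each of 7 role groups with the highest mean FPKM. For each other list up to 4 genes with the smallest adjusted p were eligible. Further members and genes, such as Tap1 and Isg15 in the maturation comparison or Ifng, were named for their role after their values had been seen. Tumours and non-tumour lungs of the same number were taken as pairs because their sample codes differ only in the letter for tumour or normal. No label states that they come from the same mice. The sample titles number the non-tumour lungs consecutively, so the title of lung 6 carries a different number from its code. Deviations of paired libraries from their group means correlated at 0.465, 0.00494 and 0.0588 for numbers 1, 3 and 6.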

Additional observations from a re-analysis of the deposited data

Results flagged for a closer look

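In 5 cases among the 44 members, 1 of the 5 non-tumour KO lungs at 18 months lay far from the other 4, by a gap to its nearest neighbour of more than 0.71 of the whole range. About 1 in 20 groups exceeds that limit by chance. Lung 6 was the high one for 3 genes. It was the highest of the 5 lungs for 26 of the 44 members, so these 3 cases are not separate events. Mx1 stood at 9.5 CPM there and at 2.22 to 4.29 in the others (gap 0.716 of the range), Mx2 at 4.3 against 2.07 to 2.60 (0.763), and Ifitm3 at 349.3 against 242 to 272 (0.723). Trim25 stood at 132.6 CPM in lung 7 and at 98.8 to 102 in the others (0.895). Cmpk2 stood at 32.2 CPM in lung 3 and at 24.9 to 26.1 in the others (0.834). Lung 6 also carries the number of the tumour that was high for most members.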

How the results depend on the processing

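Groups of 3 to 5 libraries limit what these tests can show. Over all alternatives, the values of single members gave 1357 results with the same direction and side of the threshold, 53 that fell below it, 16 that passed it and 0 that reversed. At 10 months DESeq2 called 1 member, and from 10 to 18 months in KO lungs it also called 1. Between tumour and lung, where 1 member was called, DESeq2 called 2, 1 fit over all libraries 8, limma on log2(FPKM + 0.1) 2, the paired fit with the replicate block 0 and the unpaired fit of the same libraries 0. Leaving out each library there gave 0 to 23 calls. The causes were not tested. The block changed no other count by over 1.5 times (25 in WT and 22 in KO between E19.5 and 10 months), and in the comparisons other than tumour against lung the replicate numbers do not pair the libraries. Leaving out 1 library gave 18 to 28 calls in WT and 20 to 30 in KO for maturation.

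The median over the members reversed in 5 cases. It was 0.033 at E19.5 without WT embryo 3 and KO embryo 3, 0.0641 and 0.0881 for tumours without tumour 1 or 3, 0.0329 for WT at 18 against 10 months without WT lung 2 of 10 months, and -0.0747 for WT maturation without WT embryo 1. Leaving out 1 library gave medians from -0.073 to 0.0329 for WT at 18 against 10 months and from -0.0747 to 0.255 for WT maturation. Over all alternatives the median ranged from -0.696 to 0.0881 between tumour and lung, from 0.135 to 0.329 between KO and WT at 18 months, and from 0.034 to 0.231 between 18 and 10 months in KO. The lowest values of the last 2 came from leaving out KO lungs 1 and 6 together. These lungs, and the pair of WT embryo 3 and KO embryo 3, were picked by the members' own values, so the shifts in those medians follow from the choice.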
